A study of Mus musculus with 24 samples.

Results

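The 9 genes described here encode the invariant parts of the T cell and B cell antigen receptors, the T cell coreceptors and CD20. They are Cd3d, Cd3e, Cd3g, Cd4, Cd8a and Cd8b1 for T cells and Cd79a, Cd79b and Ms4a1 for B cells, and each was taken by its symbol from a deposited table of 32561 genes. The table holds polyA RNA from dissected, flash-frozen aortas of 24 mice congenic on 129S1/SvlmJ, in 6 groups of 4 animals aged 44 to 53 days. The study compared renal failure, sex and a Bmp2 mutation. Bmp2+/+ male Kl/Kl, Bmp2+/+ female Kl/Kl and ∆UCS male Kl/Kl mice were homozygous for a Klotho mutation and labelled as having renal disease. Their controls, Bmp2+/+ males, Bmp2+/+ females and ∆UCS males with healthy kidneys, were heterozygous for the Klotho mutation, except for 1 Bmp2+/+ male control that was Klotho +/+. ∆UCS mice, Kl/Kl and control alike, were homozygous for the mutated Bmp2 allele. The alleles were carried by the whole animal and not by the aorta alone, all mice received moistened chow after weaning because Kl/Kl mice are small and weak, and female ∆UCS mice were not analysed here.

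A T cell receptor recognises peptide on MHC molecules through variable chains that cannot signal alone. The CD3 chains carry the signal into the cell, and CD4 or CD8 binds the MHC molecule beside the receptor. In B cells the surface immunoglobulin is paired with CD79A and CD79B, which signal in the same manner. These genes are used in a blood vessel as a reading of lymphocytes in its wall, in the fat around it or in lymphoid tissue taken with it. In a bulk sample, more cells of a type and more RNA per cell cannot be told apart.

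Libraries held an estimated 20594000 to 61110000 reads. Xist, transcribed from the inactive X, and Ddx3y, on the Y, matched the labelled sex in 22 libraries and went against it in 2. One was Bmp2+/+ male Kl/Kl replicate 1, where Xist was at 11.4 TPM and Ddx3y at 0.0138 TPM. The other was Bmp2+/+ female Kl/Kl replicate 2, where Xist was at 0.0281 TPM and Ddx3y at 4.81 TPM. Results below are from the 22 other libraries unless they are said to hold for all 24. A further 2 libraries stood apart by Rag1, the recombinase of developing lymphocytes. ∆UCS Kl/Kl replicate 1 had 28.0 TPM and Bmp2+/+ male control replicate 1, the Klotho +/+ animal, had 27.2 TPM, against at most 1.23 TPM in the other 20 libraries.

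The CD3 genes lie together on chromosome 9 of mm39, and the other members are spread over 4 chromosomes. Cd3g (ENSMUSG00000002033, chr9:44880870-44891729, minus strand) and Cd3d (ENSMUSG00000032094, chr9:44893084-44898637, plus strand) have 1354 bases between them and are read away from each other. Cd3e (ENSMUSG00000032093, chr9:44910038-44920925, minus strand) closes a cluster of 40056 bases. Cd8b1 (ENSMUSG00000053044, chr6:71299772-71314478, plus strand) ends 35932 bases before Cd8a (ENSMUSG00000053977, chr6:71350411-71356157, plus strand). Cd4 (ENSMUSG00000023274, chr6:124841655-124865184, minus strand) is elsewhere on that chromosome. Cd79a (ENSMUSG00000003379, chr7:24596806-24601622, plus strand), Cd79b (ENSMUSG00000040592, chr11:106202167-106205588, minus strand) and Ms4a1 (ENSMUSG00000024673, chr19:11227039-11243605, minus strand) are on 3 different chromosomes. All coordinates are whole gene spans, exons and introns together.

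The upstream sequences of the members were searched for short motifs. RefSeq promoters of the build GRCm38.p6 were matched for 5 of the 9 members, Cd3d, Cd3e, Cd3g, Cd8a and Cd79a, and the 250 bases before each start were read. The ETS family motif AGGAAGT, searched on both strands, was present in 3 of them, which are shown with the motif in capitals, 5′ to 3′ on the strand of the gene (ACTTCCT is the same motif on the opposite strand). The first motif base lay 199 bases before the start of Cd3d, 18 before that of Cd3e and 55 before that of Cd79a.
Cd3d: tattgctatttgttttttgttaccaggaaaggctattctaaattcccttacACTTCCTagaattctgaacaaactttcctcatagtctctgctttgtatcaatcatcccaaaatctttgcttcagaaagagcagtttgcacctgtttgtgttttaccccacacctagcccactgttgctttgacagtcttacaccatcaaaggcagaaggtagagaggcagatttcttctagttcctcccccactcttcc
Cd3e: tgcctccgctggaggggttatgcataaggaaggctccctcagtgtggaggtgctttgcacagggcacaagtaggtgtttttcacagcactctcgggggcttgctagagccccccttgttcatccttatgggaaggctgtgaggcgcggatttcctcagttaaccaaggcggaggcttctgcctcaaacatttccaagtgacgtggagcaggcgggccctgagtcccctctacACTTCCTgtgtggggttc
Cd79a: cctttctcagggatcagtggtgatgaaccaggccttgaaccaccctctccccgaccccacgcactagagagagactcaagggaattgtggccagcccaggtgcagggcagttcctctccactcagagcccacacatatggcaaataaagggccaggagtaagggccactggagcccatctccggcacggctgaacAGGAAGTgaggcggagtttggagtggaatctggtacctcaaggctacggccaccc
These windows are chr9:44981536-44981785 on the plus strand, chr9:45009612-45009861 on the minus strand and chr7:24897247-24897496 on the plus strand. Of 32851 RefSeq promoters of the same length, 7.7% held AGGAAGT. The octamer ATGCAAAT, found in 1.6% of them, the EBF1 motif CCCNNGGG, found in 11.8%, and the RUNX motif TGTGGT, found in 14.0%, were not among the letters of the 5 windows. The motifs do not overlap one another in the windows shown, and a match of letters is a description only.

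The CD3 chains varied by large factors among animals of the same group. Cd3e, the CD3 epsilon chain, had 0.195, 0.125 and 1.11 TPM in Bmp2+/+ male Kl/Kl libraries, against 4.41, 0.0545, 2.69 and 0.305 TPM in Bmp2+/+ male controls. It had 3.40, 0.136 and 0.165 TPM in Bmp2+/+ female Kl/Kl libraries, against 0.0234, 0.121, 0.0950 and 0.356 TPM in female controls. In ∆UCS males it had 15.9, 1.30, 0.0987 and 0.177 TPM with Kl/Kl, against 0.0959, 0.399, 0.0804 and 1.17 TPM in controls. One or 2 libraries in most groups were far above the others, and Kl/Kl and control values overlapped in each of the 3 pairs of groups. TPM here is scaled by the whole span of a gene, so levels are compared between libraries and not between genes.

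Cd3d, the delta chain, had 0.283, 0.590 and 1.96 TPM in Bmp2+/+ male Kl/Kl libraries, against 7.86, 0.0905, 5.77 and 0.680 TPM in male controls. In females it had 5.44, 0.203 and 0.706 TPM with Kl/Kl, against 0.0917, 0.139, 0.259 and 0.543 TPM in controls. In ∆UCS males the values were 22.3, 1.43, 0.170 and 0.852 TPM with Kl/Kl, against 0.182, 0.686, 0.109 and 1.97 TPM in controls. The same libraries were high as for Cd3e, with ∆UCS Kl/Kl replicate 1 first and Bmp2+/+ male control replicate 1 next. Cd3g, the gamma chain, had 0.199, 0.285 and 1.12 TPM in Bmp2+/+ male Kl/Kl libraries, against 5.05, 0.0419, 2.79 and 0.397 TPM in male controls. In females it had 2.66, 0.148 and 0.364 TPM with Kl/Kl, against 0.0678, 0.0870, 0.1003 and 0.328 TPM in controls, and in ∆UCS males 14.9, 0.755, 0.119 and 0.502 TPM with Kl/Kl, against 0.111, 0.411, 0.0977 and 1.04 TPM in controls. Kl/Kl and control values of Cd3d and of Cd3g overlapped in each pair. Cd3g ranged between 0.0419 TPM in Bmp2+/+ male control replicate 2 and 14.9 TPM in ∆UCS Kl/Kl replicate 1. Among the 22 libraries the highest value was 246 times the lowest for Cd3d, 681 times for Cd3e and 356 times for Cd3g. Estimated reads of Cd3e ran between 9 and 5134.6 per library, so its lowest values rest on few reads.

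The coreceptors followed the CD3 chains. Cd4, the coreceptor for MHC class II which rat macrophages also carry, had 0.110, 0.193 and 1.05 TPM in Bmp2+/+ male Kl/Kl libraries, against 3.61, 0.0437, 1.51 and 0.183 TPM in male controls. Females had 2.01, 0.170 and 0.156 TPM of it with Kl/Kl, against 0.0132, 0.0462, 0.0833 and 0.220 TPM in controls. ∆UCS males had 9.80, 0.790, 0.0740 and 0.112 TPM with Kl/Kl, against 0.0699, 0.267, 0.0543 and 0.784 TPM in controls. The groups overlapped again, and the libraries high in Cd3e were those high in Cd4.

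Cd8a and Cd8b1, the alpha and beta chains of the coreceptor for MHC class I, showed the widest gap between the 2 libraries high in Rag1 and the rest. Cd8a had 0.273, 0.721 and 1.91 TPM in Bmp2+/+ male Kl/Kl libraries, against 33.6, 0.137, 7.94 and 0.798 TPM in male controls. It had 6.57, 0.253 and 1.35 TPM in female Kl/Kl libraries, against 0.202, 0.214, 0.371 and 1.18 TPM in female controls. It had 62.3, 2.52, 0.348 and 0.918 TPM in ∆UCS Kl/Kl libraries, against 0.329, 0.989, 0.315 and 3.70 TPM in ∆UCS controls. The 62.3 TPM of ∆UCS Kl/Kl replicate 1 and the 33.6 TPM of Bmp2+/+ male control replicate 1 were above the highest of the other 20 libraries, 7.94 TPM. Cd8b1 had 0.0888, 0.213 and 0.492 TPM in Bmp2+/+ male Kl/Kl libraries, against 7.88, 0.0293, 2.19 and 0.282 TPM in male controls. It had 2.02, 0.0666 and 0.294 TPM in female Kl/Kl libraries, against 0.0481, 0.0759, 0.0593 and 0.280 TPM in female controls, and 13.4, 0.620, 0.0635 and 0.448 TPM in ∆UCS Kl/Kl libraries, against 0.0878, 0.275, 0.0852 and 1.03 TPM in ∆UCS controls. Its order of libraries was close to that of Cd8a, and the groups of each pair overlapped for both genes. Without these 2 libraries the highest Cd8a value was 57.8 times the lowest, against 453 times with them, and for Cd8b1 it was 74.9 times against 458 times.

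**Figure D1:**
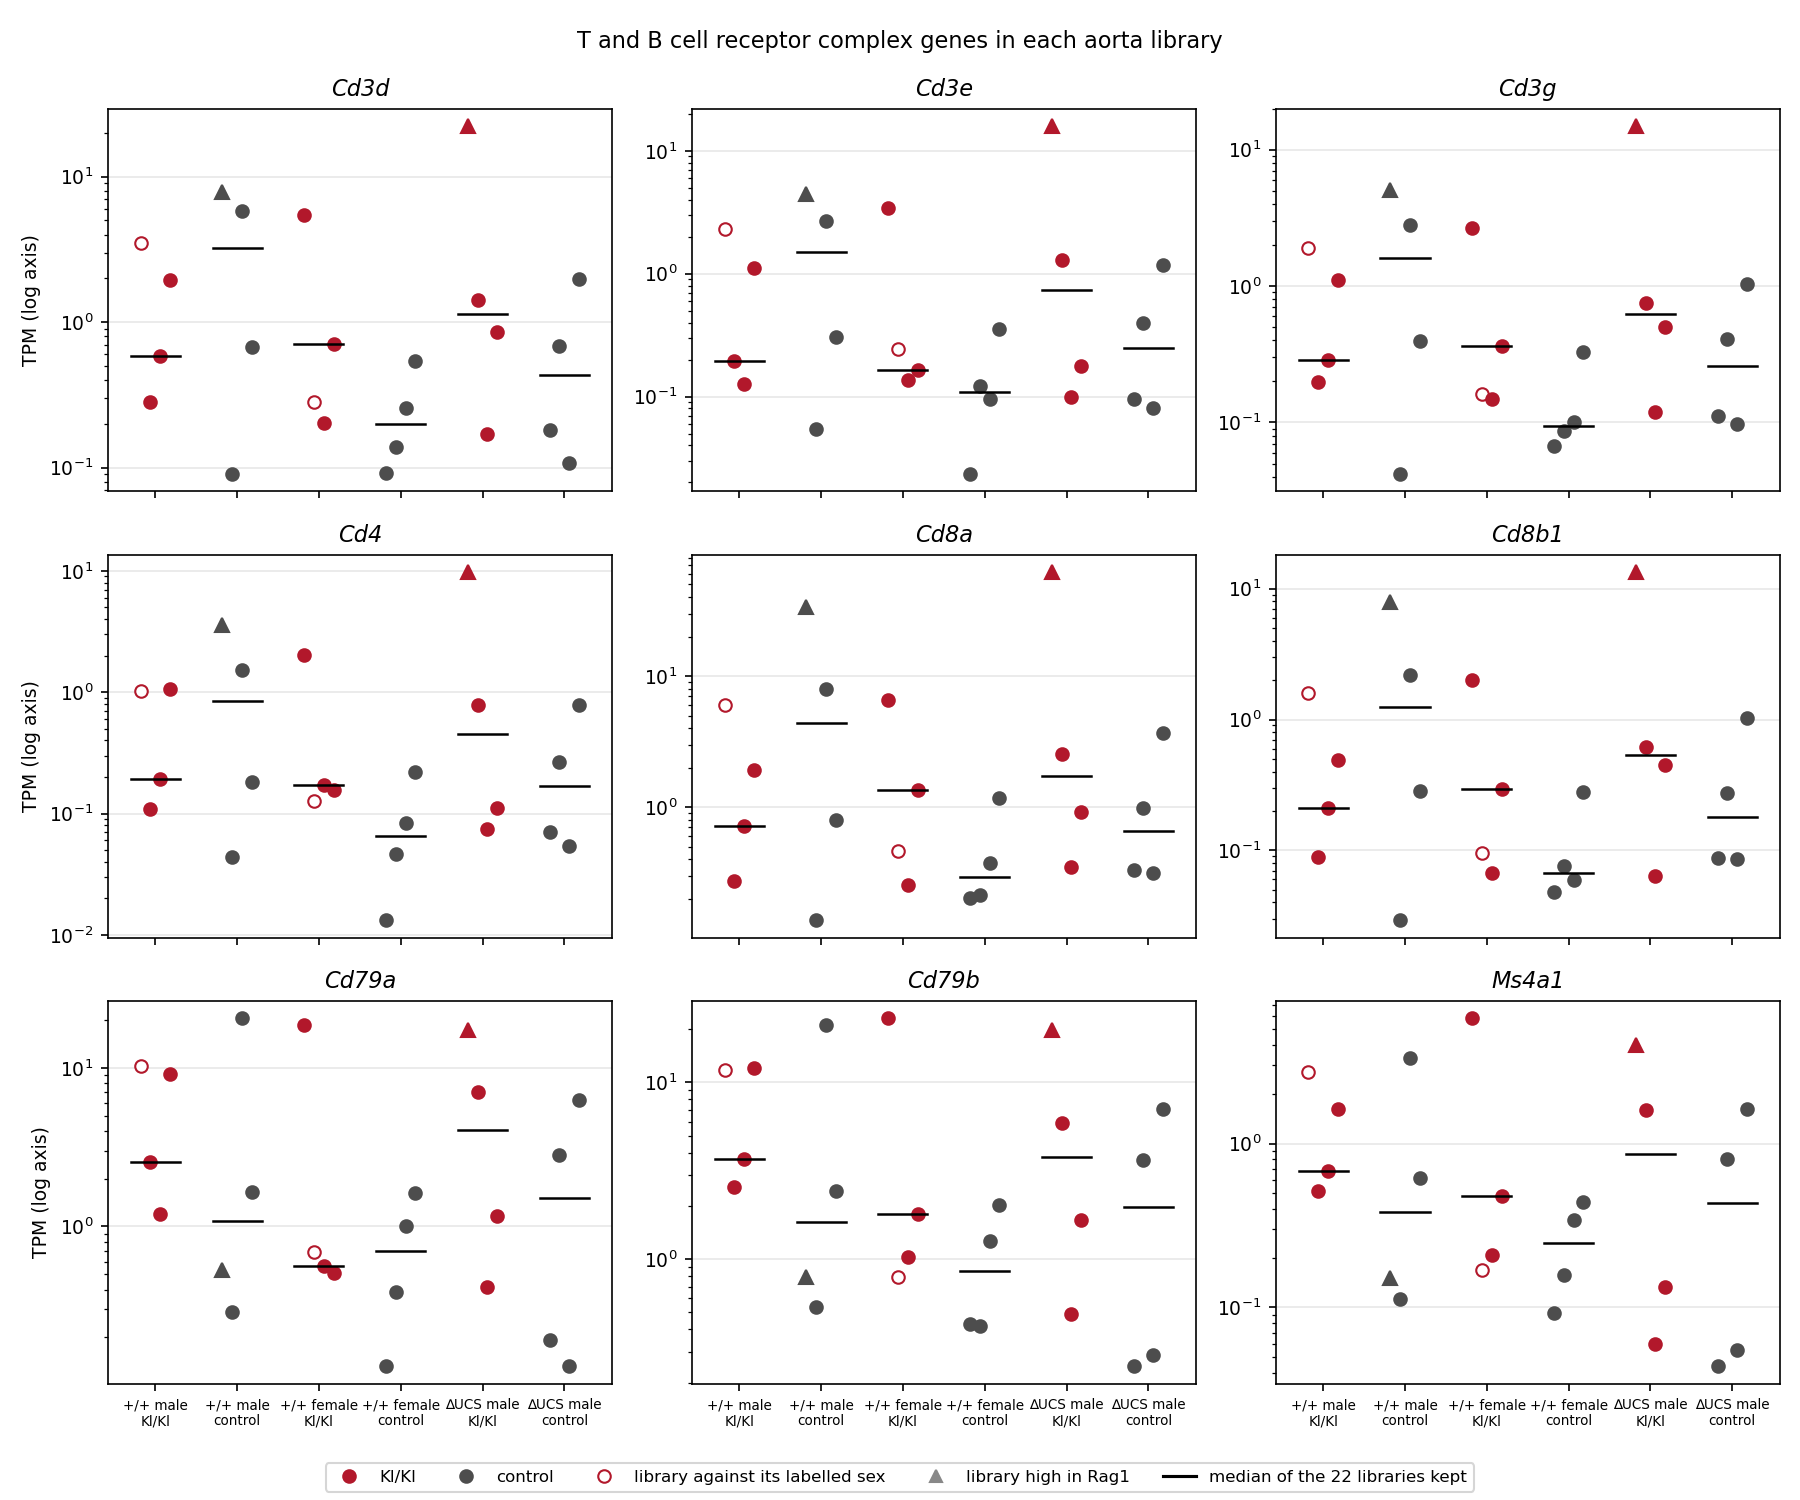
Each panel plots the TPM of 1 member (log axis) in the 24 aorta libraries by group, with Kl/Kl in red and controls in grey, and black bars for the median of the 22 libraries kept. Within every group the points spread over a wide range, and the triangles, the 2 libraries high in Rag1, are the highest points of all 6 T cell panels and of none of the 3 B cell panels.

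The B cell genes also spread widely, but with other libraries on top. Cd79a, the CD79 alpha chain, had 2.54, 1.21 and 9.21 TPM in Bmp2+/+ male Kl/Kl libraries, against 0.533, 0.290, 20.6 and 1.64 TPM in male controls. It had 18.7, 0.559 and 0.511 TPM in female Kl/Kl libraries, against 0.132, 0.387, 1.01 and 1.62 TPM in female controls. ∆UCS males had 17.4, 7.01, 0.417 and 1.16 TPM with Kl/Kl, against 0.192, 2.82, 0.131 and 6.26 TPM in controls. Male control replicate 3, female Kl/Kl replicate 1 and ∆UCS Kl/Kl replicate 1 were highest, and the groups of each pair overlapped.

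Cd79b, the beta chain, had 2.56, 3.69 and 12.1 TPM in Bmp2+/+ male Kl/Kl libraries, against 0.794, 0.538, 21.0 and 2.44 TPM in male controls. Ms4a1, which encodes the B cell surface protein CD20, had 0.514, 0.677 and 1.62 TPM in the same Kl/Kl libraries, against 0.150, 0.113, 3.33 and 0.618 TPM in the same controls. Both were highest in control replicate 3 of these males. In females Cd79b had 23.1, 1.02 and 1.80 TPM with Kl/Kl, against 0.430, 0.418, 1.27 and 2.03 TPM in controls. Ms4a1 had 5.83, 0.208 and 0.475 TPM in female Kl/Kl libraries, against 0.0922, 0.157, 0.339 and 0.442 TPM in female controls. Kl/Kl replicate 1 was far above all other females for both genes. In ∆UCS males Cd79b had 19.8, 5.87, 0.490 and 1.66 TPM with Kl/Kl, against 0.248, 3.65, 0.289 and 7.08 TPM in controls. Ms4a1 had 3.97, 1.60, 0.0597 and 0.133 TPM in ∆UCS Kl/Kl libraries, against 0.0438, 0.810, 0.0553 and 1.63 TPM in ∆UCS controls. Kl/Kl and control values of both genes overlapped in each pair of groups. Over the 22 libraries Cd79b ranged between 0.248 and 23.1 TPM and Ms4a1 between 0.0438 and 5.83 TPM. Both peaked in female Kl/Kl replicate 1 and were lowest in ∆UCS control replicate 1. The highest value was 157 times the lowest for Cd79a, 93.1 times for Cd79b and 133 times for Ms4a1. These ratios were the same without the 2 libraries high in Rag1, which held neither extreme of a B cell gene.

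The 2 libraries left out for their sex genes lay within the spread of the rest. Bmp2+/+ male Kl/Kl replicate 1 had 2.31 TPM of Cd3e, 5.97 TPM of Cd8a and 10.2 TPM of Cd79a, above the other Kl/Kl males in all 3 genes. It was below replicate 4 in Cd4 (1.01 against 1.05 TPM) and Cd79b (11.7 against 12.1 TPM). Bmp2+/+ female Kl/Kl replicate 2 had 0.242 TPM of Cd3e, 0.464 TPM of Cd8a and 0.693 TPM of Cd79a, within the range of the other Kl/Kl females. It was below all of them in Cd4 (0.127 TPM), Cd79b (0.797 TPM) and Ms4a1 (0.168 TPM). Cd68, a macrophage gene, had 3.76 and 2.69 TPM in these 2 libraries, against 15.9 to 68.2 TPM in the 10 other Kl/Kl libraries and 1.57 to 5.98 TPM in the 12 controls.

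Library by library, the members mostly moved as 1 block. All 9 exceeded their own median over the 22 libraries in 6 libraries, 4 of the 10 Kl/Kl and 2 of the 12 controls, and none of the 9 did so in 8 libraries. Relative to that median, the T cell genes were typically 51.8 times higher in ∆UCS Kl/Kl replicate 1 (median over 6 genes) and the B cell genes 10.4 times higher (median over 3 genes). In female Kl/Kl replicate 1 the same folds were 8.12 and 12.7, and in Bmp2+/+ male control replicate 3 they were 8.83 and 10.97. Bmp2+/+ male control replicate 1 broke the pattern, with T cell genes at 22.01 times and B cell genes at 0.414 times their medians. The ratio of Cd3e to Cd79a TPM was 0.915 in ∆UCS Kl/Kl replicate 1 and 8.27 in that control, against 0.0769 to 0.612 in the 20 others, so its highest value was 108 times its lowest.

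**Figure D2:**
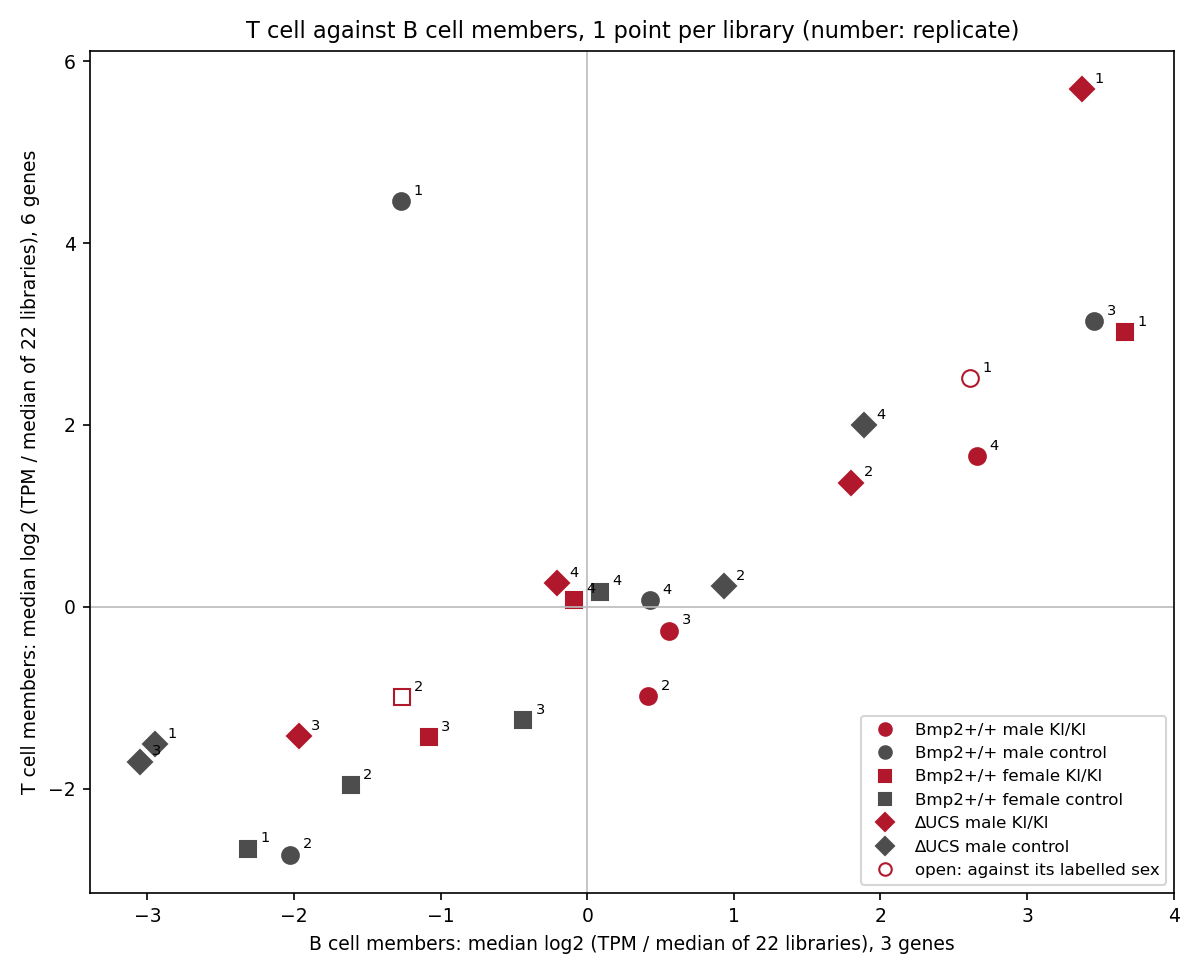
Each point is 1 library, placed by the median log2 ratio to the 22-library median of the 3 B cell members (horizontal) and of the 6 T cell members (vertical), with numbers for replicates and open points for the 2 libraries against their labelled sex. The points run along a diagonal except for Bmp2+/+ male control replicate 1 (4.46 vertical, -1.27 horizontal), and ∆UCS Kl/Kl replicate 1 lies highest (5.69).

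Within a receptor the chains kept closer ratios than the receptors did to each other. Cd8b1 over Cd8a ran between 0.159 and 0.488, a range of 3.06 times, and Cd79b over Cd79a between 0.838 and 3.53, a range of 4.21 times. Cd3d over Cd3e spanned 4.37 times and Cd3g over Cd3e 4.97 times. Cd8a over Cd4 spanned 10.3 times, between 1.49 in female Kl/Kl replicate 3 and 15.3 in female control replicate 1, where Cd4 had its lowest value. Ratios of TPM to TPM are read here only for how they vary between libraries.

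Genes of developing T cells and of thymic epithelium were high in the same 2 libraries as Rag1. Dntt, the polymerase that adds bases at receptor junctions, had 4.45 TPM in ∆UCS Kl/Kl replicate 1 and 4.06 TPM in Bmp2+/+ male control replicate 1, against at most 0.224 TPM elsewhere. Ptcra, the pre-T cell receptor alpha chain, had 1.31 and 0.580 TPM, against at most 0.0190 TPM. Prss16, a thymus-specific protease, had 89.5 and 11.7 TPM, against at most 0.411 TPM, and Psmb11, the thymoproteasome subunit, had 9.25 and 1.53 TPM, against at most 0.0544 TPM. Foxn1, the transcription factor of thymic epithelium, reached 0.477 and 0.0772 TPM in these libraries, and 4 of the 20 others held 0 reads of it. Rag1 held 0 reads in 2 of those 20 libraries, Rag2 in 7 and Ptcra in 2. Of the 20, ∆UCS control replicate 4 was highest in Rag1 (1.23 TPM, median 0.0469), Rag2 (0.162 TPM, median 0.0092) and Dntt (0.224 TPM, median 0.0138). Prss16 and Psmb11 were highest in ∆UCS control replicate 1. Both libraries stay in the fits without the 2 libraries high in Rag1.

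Genes of lymph node stroma followed a second set of libraries. Glycam1, a mucin-like protein of high endothelial venules, had 199 TPM in female Kl/Kl replicate 1, 146 TPM in ∆UCS Kl/Kl replicate 1, 114 TPM in Bmp2+/+ male Kl/Kl replicate 4 and 79.2 TPM in Bmp2+/+ male control replicate 3. It had 0.454 TPM in Bmp2+/+ male control replicate 1, where Rag1 was high, although the whole lymph node stroma list summed to 58.8 TPM there, above the median of its group, 54.2 TPM. Cr2, a complement receptor of B cells and follicular dendritic cells, is on the B cell list. It had 1.64, 0.923, 0.296 and 1.26 TPM in those first 4 libraries and 0.0256 TPM in the last. In those first 4 libraries the B cell genes were highest by their median fold, and the Rag1-high control is among those in which they were low. Other libraries were above the median too. B cell genes were at 3.48 times in ∆UCS Kl/Kl replicate 2 and 3.70 times in ∆UCS control replicate 4, whose Glycam1 and Cr2 are not given here. Summed over the lymph node stroma list, of which 8 of 9 genes were in the table, TPM was 56.5 to 435 in Bmp2+/+ male Kl/Kl libraries, against 20.2 to 474 in male controls. The sum was 61.8 to 495 in female Kl/Kl libraries, against 22.01 to 48.6 in female controls, and 31.2 to 639 in ∆UCS Kl/Kl libraries, against 12.48 to 116 in ∆UCS controls. Whether thymus or lymph node was taken with an aorta is not given in the sources used here, and its part in the levels of the members was not tested.

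The summed thymic epithelium list, 8 genes, held 3.71 to 28.6 TPM in Bmp2+/+ male Kl/Kl libraries, against 18.6 to 111 TPM in male controls. It held 8.11 to 32.6 TPM in female Kl/Kl libraries, against 12.3 to 69.8 TPM in female controls, and 4.51 to 218 TPM in ∆UCS Kl/Kl libraries, against 2.50 to 26.5 TPM in ∆UCS controls. Krt5, a keratin that other epithelia share, gave the highest mean of that list, 25.8 TPM, so the sum follows more than thymus. The thymocyte list, 11 genes, summed to 10.1 to 27.2 TPM in Bmp2+/+ male Kl/Kl libraries, against 12.8 to 61.7 TPM in male controls. It summed to 14.9 to 17.7 TPM in female Kl/Kl libraries, against 14.4 to 20.0 TPM in female controls, and to 8.53 to 65.8 TPM in ∆UCS Kl/Kl libraries, against 12.1 to 22.3 TPM in ∆UCS controls. Cd1d1, which many cell types express, gave its highest mean, 14.6 TPM.

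**Figure D3:**
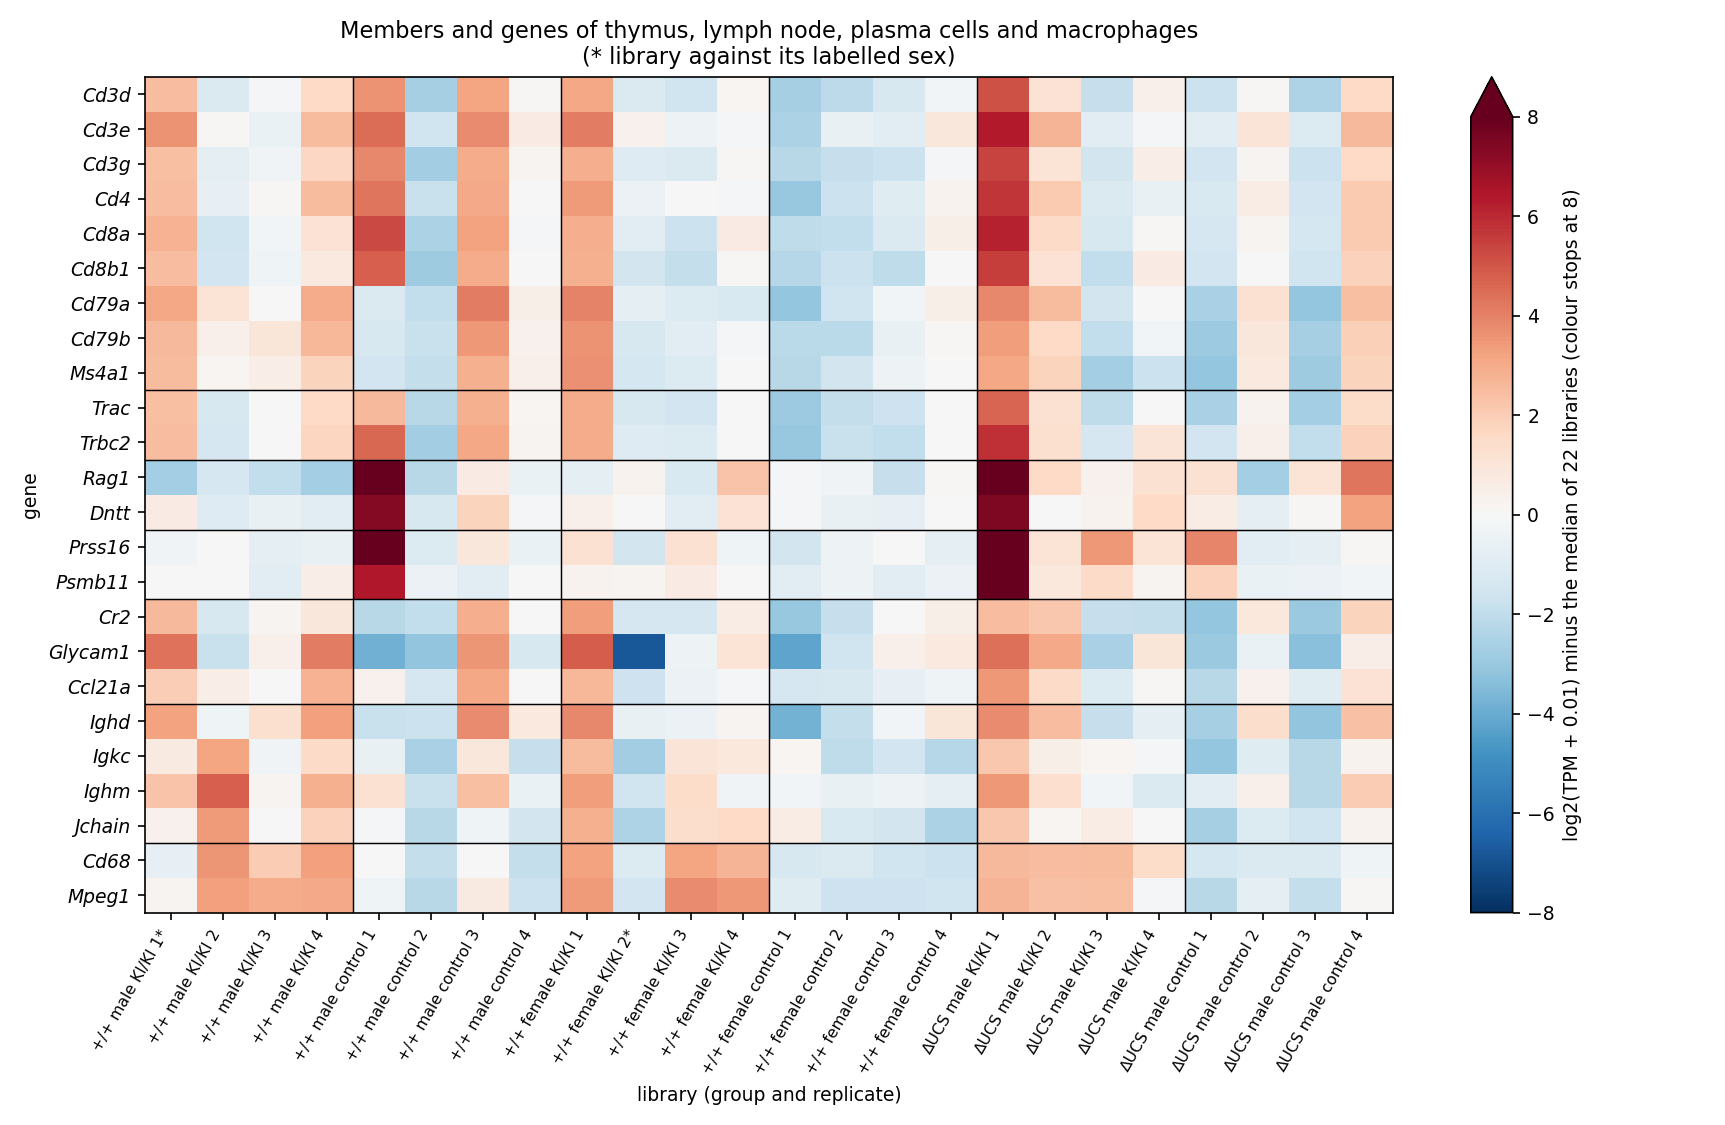
Colour gives log2(TPM + 0.01) of each gene (rows) minus its median over 22 libraries, in each of the 24 libraries (columns, Kl/Kl left of controls in each pair), and it stops at 8. Rag1, Dntt, Prss16 and Psmb11 are highest in 2 columns, ∆UCS male Kl/Kl 1 and Bmp2+/+ male control 1, while the B cell genes follow Cr2, Glycam1 and Ccl21a, and Cd68 separates Kl/Kl from control libraries except for the 2 starred ones.

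Relations across the 22 libraries were computed for 8 gene pairs on log2(TPM + 0.01), with two-sided permutation tests adjusted over the 8. Cd3e and Cd79a gave a Pearson r of 0.81 (permutation p = 2e-05, adjusted 3.2e-05) and a Spearman rho of 0.84 (p = 1e-05, adjusted 2e-05). The smallest p that 100000 permutations can give is 1e-05. Without the 2 libraries farthest from the median of Cd3e, which are those high in Rag1, r was 0.95. It was 0.71 within the first library set and 0.97 within the second, and 0.82 after group means were subtracted. Libraries rich in Cd3e were thus rich in Cd79a in both sets and within groups, apart from Bmp2+/+ male control replicate 1.

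Of the 8 pairs, Cd79a with Ccl21a and Cd79a with Cr2 had the highest r and rho over the 22 libraries. Cr2 is itself on the B cell list. For Cd79a with Ccl21a, a chemokine of lymph node stroma and lymphatic vessels, r was 0.94 and rho 0.93 (adjusted p = 2e-05 for both). Ccl21a was itself highest, at 471 TPM, in ∆UCS Kl/Kl replicate 1, which is also high in Rag1. For Cd79a with Cr2, r was 0.92 and rho 0.91 (adjusted p = 2e-05 for both). Both pairs stayed between 0.89 and 0.94 in r without the 2 libraries farthest from the median of Cd79a, within each library set and after group means were subtracted. Cd3e and Ccl21a gave an r of 0.87 and a rho of 0.90 (adjusted p = 2e-05 for both), and 0.92 in r without the 2 farthest libraries.

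The relations of Cd3e with thymocyte genes rested more on the 2 libraries high in Rag1. With Ptcra, r was 0.75 (adjusted p = 2e-05) and rho 0.72 (adjusted p = 0.0004), and r was 0.64 without those 2. In the 20 other libraries Ptcra had a median of 0.0078 TPM and at most 0.0190 TPM, near the 0.01 TPM added, so the 0.64 rests on values at the floor. With Dntt, r was 0.71 (adjusted p = 0.000493) and rho 0.45 (adjusted p = 0.0468). Without the 2 libraries high in Rag1 it was 0.39 in r, so that relation rests on those libraries. Relations with the macrophage gene Cd68 were computed too. For Cd3e and Cd68, r was 0.34 (adjusted p = 0.12) and rho 0.43 (adjusted p = 0.0482), and without the 2 farthest libraries r was also 0.34. For Cd79a and Cd68, r was 0.43 (adjusted p = 0.0528) and rho 0.44 (adjusted p = 0.0472), and r was again 0.43 without the 2 farthest. Within the first library set r of Cd3e and Cd68 was 0.10, and within the second it was 0.58.

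By Spearman rho over the 22 libraries and 7481 genes, the 5 genes whose levels were most like those of Cd3e were Sh2d2a (0.98), Lat (0.97), Tcf7 (0.97), Lck (0.97) and Sash3 (0.96), with Spn tied with Sash3. Lck is the kinase that phosphorylates the CD3 chains, Lat the adaptor downstream of them and Tcf7 a transcription factor of T cells. Among the genes most like Cd79a were Gimap3 (0.97), Spib (0.97), Tnfrsf13c (0.97) and Siglecg (0.97). Tnfrsf13c encodes the receptor for BAFF and Spib an ETS family transcription factor. Lat ranged between 0.133 and 37.6 TPM and Spib between 0.0745 and 9.41 TPM over these libraries.

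In Bmp2+/+ males the comparison asked whether renal failure changed the receptor genes, and none of the 9 was called higher or lower with Kl/Kl. All 9 passed the filter on low values, at least 4 libraries at 1 TPM or more, and limma called 0 of 9 at an adjusted p under 0.05, while 0 of 9 had an unadjusted p below it. Over all 9861 genes tested, 1.11% were called. The 6 T cell genes had negative log2 changes, with a median of -0.93, and the 3 B cell genes positive ones, with a median of 0.36, while the median of all genes was 0.09. Voom on estimated reads gave medians of -2.23 and 0.90, and a pseudocount of 0.1 gave -1.32 and 0.82. Cd8a had a log2 change of -1.73 (SE 1.09, adjusted p = 0.59) and Cd3e one of -0.83 (SE 0.74, adjusted p = 0.73). Cd79a had a log2 change of 0.36 (SE 1.10, adjusted p = 0.95). Cd3e averaged 0.475 ± 0.547 TPM in Kl/Kl males and 1.86 ± 2.07 TPM in control males (SD, n = 3 and 4). With limma voom on estimated reads 0 of 9 were called, where 1.52% of all genes were, and 1, Cd8a, had an unadjusted p under 0.05 (log2 change -3.37, adjusted p = 0.37).

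The size of these differences in Bmp2+/+ males changed when single libraries were left out, in fits on log2(TPM + 1) that kept the library set term. Without control replicate 1, which is high in Rag1, the median log2 change of the T cell genes was -0.48 and that of the B cell genes -0.24. Without control replicate 3, high in both, the medians were -0.75 and 1.67, and without control replicate 2 they were -1.23 and -0.04. Without Kl/Kl replicate 4 they were -2.08 and -0.62. That library is the only kept Bmp2+/+ male Kl/Kl library of the second library set. Without it the set term leaves Kl/Kl replicates 2 and 3 against control replicates 1 and 3, all of the first set. That shift is therefore not due to the values of replicate 4 alone. In all 24 libraries as labelled the medians were -0.48 for T cell genes and 0.75 for B cell genes, and 0 of 9 members and 0.0% of 9933 genes were called. None of the 9 members had Kl/Kl values all above or all below the controls, in 22 or in 24 libraries. Of all genes tested, 5.77% had Kl/Kl values above every male control and 1.19% below every one.

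In Bmp2+/+ females all 9 members had positive log2 changes with Kl/Kl, but none was called. Limma called 0 of 9 where 2.63% of all genes were called, and voom 0 of 9 where 3.28% were. By either tool 0 of 9 had an unadjusted p under 0.05. The median log2 change was 0.65 for T cell genes and 1.08 for B cell genes, against 0.29 for all genes. Voom gave 1.79 and 1.61, and a pseudocount of 0.1 gave 1.58 and 1.63. Cd79b had the largest, 1.41 (SE 1.03, adjusted p = 0.38), Cd3d had 0.92 (SE 0.82, adjusted p = 0.48) and Cd3e 0.66 (SE 0.73, adjusted p = 0.58). Cd79a averaged 6.59 ± 10.49 TPM in Kl/Kl females and 0.787 ± 0.666 TPM in control females (SD, n = 3 and 4). Replicate 1 alone held that mean up: without it the medians were 0.11 for T cell genes and 0.09 for B cell genes, and the log2 change of Cd79a was -0.14. These left-out fits used log2(TPM + 1) only. That scale shrinks differences between values below 1 TPM, where most T cell values of the remaining females lay. With all 24 libraries the medians were 0.51 and 0.81, with 0 of 9 members and 0.0% of genes called. None of the 9 had separate groups, where 28.3% of all genes had every Kl/Kl value above every female control and 1.63% below. Library names hold 3 pairs of a Kl/Kl and a control female of the same age with neighbouring animal numbers, though no label says that they were littermates. Kl/Kl was the higher library in each of the 3 pairs for 8 of 9 members and in 2 of 3 for Cd8b1, where 45.7% of all genes were higher in each. These pairs were formed after the values were seen, and a fit with them as a block called 0 of 9 members.

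In ∆UCS males all 9 members again had positive log2 changes with Kl/Kl, and again none was called. Limma called 0 of 9 where 0.649% of all genes were called, and voom 0 of 9 where 1.21% were. By either tool 0 of 9 had an unadjusted p under 0.05. The median log2 change was 0.94 for T cell genes and 0.81 for B cell genes, against 0.26 for all genes. Voom gave 1.30 and 0.95, and a pseudocount of 0.1 gave 1.502 and 1.27. Cd8a had a log2 change of 1.28 (SE 0.99, adjusted p = 0.47), Cd3e 0.95 (SE 0.68, adjusted p = 0.44) and Ms4a1 0.39 (SE 0.56, adjusted p = 0.67). Cd8a averaged 16.5 ± 30.5 TPM in Kl/Kl ∆UCS males and 1.33 ± 1.61 TPM in control ∆UCS males (SD, n = 4 each). Without Kl/Kl replicate 1, the library high in Rag1, the medians were 0.06 for T cell genes and 0.11 for B cell genes, again on log2(TPM + 1) only. Adding the 2 libraries against their labelled sex left both medians at 0.94 and 0.81, since neither is ∆UCS, and 0.0% of genes were then called. The groups of each member overlapped, where 8.2% of all genes had every Kl/Kl value above every ∆UCS control and 2.11% below.

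**Figure D4:**
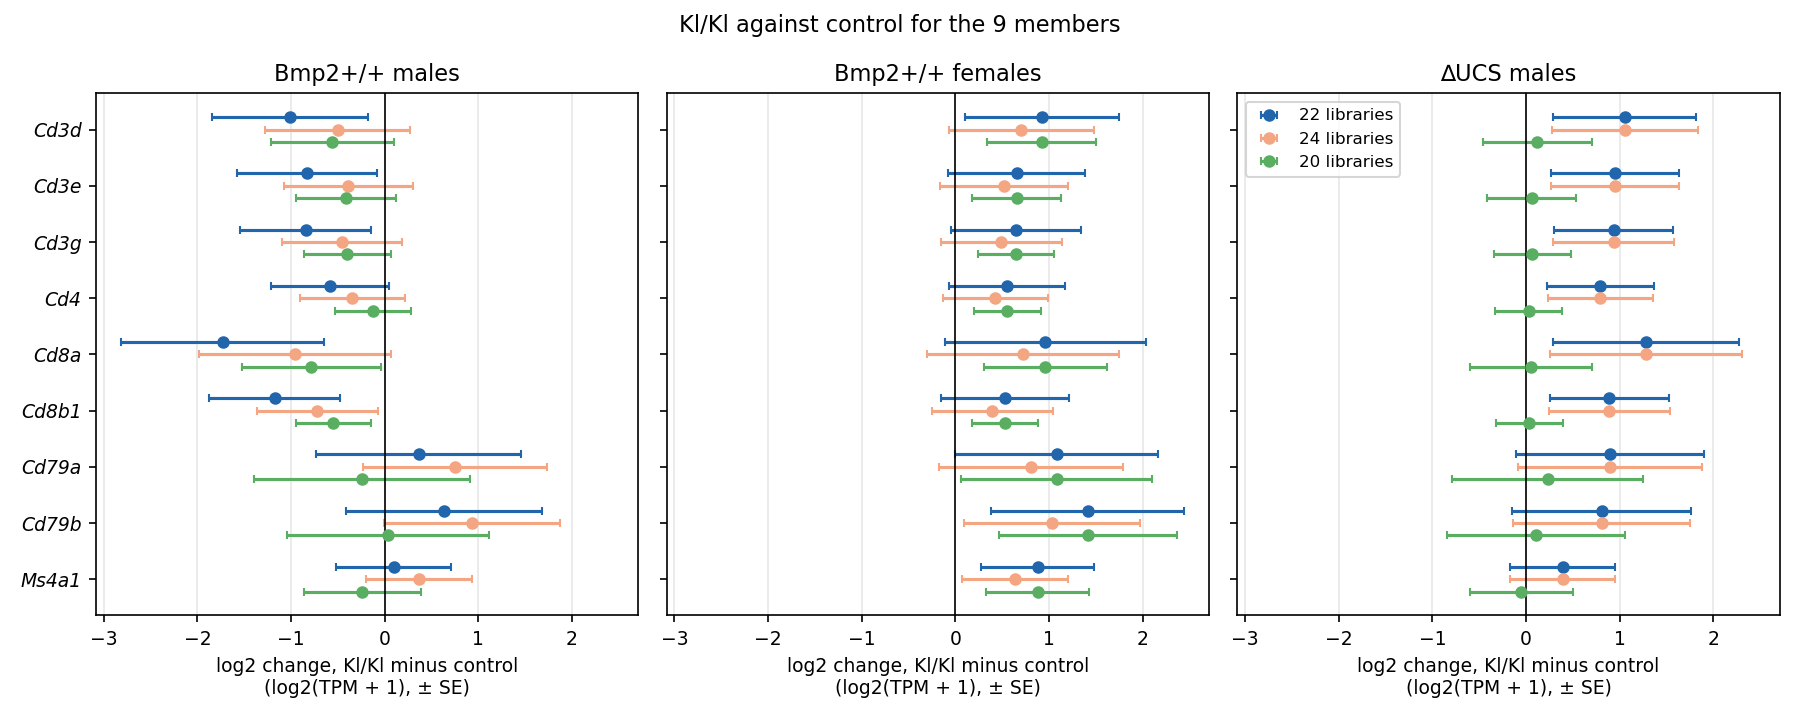
Points give the limma log2 change of each member on log2(TPM + 1), Kl/Kl minus control, with bars of 1 SE, from 22 libraries, from all 24 and from the 20 without the libraries high in Rag1. In Bmp2+/+ males the T cell genes lie left of 0 and the B cell genes near or right of it, and in ∆UCS males all 9 move close to 0 in the fit of 20 libraries.

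The Kl/Kl effects on the members were also set against each other. The effect in ∆UCS males minus that in Bmp2+/+ males was positive for 9 of 9 members, with a median of 1.78, but 0 of 9 were called and 0.0% of all genes were. Cd8b1 had an unadjusted p of 0.0414 (log2 difference 2.07, SE 0.94, adjusted p = 0.95), the only member under 0.05 by limma. By voom 0 of 9 were called, and Cd8a alone had an unadjusted p under 0.05 (log2 difference 4.70, adjusted p = 0.58). Without the 2 libraries high in Rag1 the median difference was 0.47. The effect in females minus that in males had a median of 1.49 over the 9, with 0 of 9 called and 0 at an unadjusted p under 0.05 by limma and by voom, and 0.0% of all genes called. These contrasts share the Bmp2+/+ males, whose control replicate 1 enters both. The members vary together, so a sign common to all 9 is not 9 separate results, in these contrasts or in the others.

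Neither Bmp2 genotype nor sex gave a call among the members. In ∆UCS against Bmp2+/+ control males all 9 log2 changes were negative, with a median of -1.14, and 0 of 9 were called, as were 0.0% of all genes. The library set term was estimated from Bmp2+/+ males alone, the only groups with libraries in both sets. Cd8a had a log2 change of -2.21 (SE 1.13, adjusted p = 0.96) and Cd8b1 one of -1.49 (SE 0.72, adjusted p = 0.96). Without the 2 libraries high in Rag1 the median of the 9 was -0.71. In ∆UCS against Bmp2+/+ Kl/Kl males the median was 0.51, and -0.20 without those 2 libraries, with 0 of 9 and 0.0% of all genes called. In females against males the median was -0.63 among controls and 0.86 among Kl/Kl mice, with 0 of 9 called in each, where 0.0304% of all genes were called in each. In these 4 contrasts 0 of 9 members had an unadjusted p under 0.05 by limma. Voom called 0 of 9 in each, where it called 0.027% of all genes between the control sexes, 0.036% between the Kl/Kl sexes and 0.0% between the Bmp2 genotypes, and 1 member, Cd8a in ∆UCS against Bmp2+/+ controls, had an unadjusted voom p under 0.05 (0.0498).

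Other genes of the 2 receptor pathways, from lists drawn up by function, were counted in the same comparisons. Counts at an unadjusted p below 0.05, here and below, have no share of all genes beside them. That share need not equal 0.05, so these counts are a description only. Of the antigen receptor constant and zeta genes, 7 of 9 were tested and 0 called in each of the 3 Kl/Kl comparisons, and an unadjusted p below 0.05 was reached by 1 for Bmp2+/+ males, 2 for females and 1 for ∆UCS males. Of the T cell signalling genes 5 of 15 were tested, and 1, Il7r, the receptor for interleukin 7, was called higher in Kl/Kl females (log2 change 2.08, SE 0.43, adjusted p = 0.0091). Il7r had log2 changes of 1.39 (adjusted p = 0.18) in Bmp2+/+ males and 1.28 (adjusted p = 0.11) in ∆UCS males. Of the B cell genes 7 of 15 were tested and 0 called, and in that order 0, 1 and 1 had an unadjusted p below 0.05, while voom, which tested all 15, called Btk, a kinase of B cell receptor signalling, higher in females. In Bmp2+/+ males, females and ∆UCS males the median log2 changes were 0.54, 1.80 and 1.197 for the constant and zeta genes, -0.99, 0.63 and 1.03 for T cell signalling and 0.05, 0.82 and 0.65 for B cell genes, beside 0.09, 0.29 and 0.26 over all genes. In Bmp2+/+ males the constant genes split by cell type. Trac, Trbc1 and Trbc2 had log2 changes of -0.84, -1.53 and -1.50, and Ighd, Ighm, Igkc and Iglc1 had 0.54, 1.92, 2.26 and 2.28. In the other comparisons all 7 were positive. The zeta gene Cd247 and Trdc were not tested by limma. The NK and cytotoxic list had 2 of 10 tested and 0 called, with 0 at an unadjusted p under 0.05 in each comparison and medians of -0.39, 0.84 and 0.79.

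Immunoglobulin transcripts did not keep to the B cell members. Igkc, the kappa constant region, had 1709 TPM in Bmp2+/+ male Kl/Kl replicate 2, where Ighm, the mu heavy chain, had 263 TPM and Jchain, the joining chain of secreted antibody, 35.3 TPM. Cd79a was 2.54 TPM and Ms4a1 0.514 TPM in that library, and its ratio of Ighm to Ighd, 315, was the highest of all. The ratio of Igkc to Cd79a ran between 17.8 in Bmp2+/+ male control replicate 3 and 1657 in female control replicate 1. Jchain had log2 changes of 2.13 (adjusted p = 0.15) in Bmp2+/+ males, 2.39 (adjusted p = 0.051) in females and 1.40 (adjusted p = 0.24) in ∆UCS males with Kl/Kl. Of the plasma cell genes 5 of 8 were tested and 0 called, and voom called Jchain higher in females. An unadjusted p below 0.05 was reached by 3, 3 and 4 of them, with the share of all genes below it not given here. Their median log2 changes were 0.84, 1.00 and 0.90.

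Other cell types of the sample moved beside these genes. Macrophage genes were higher with Kl/Kl in all 3 comparisons, 6 of 10 tested in Bmp2+/+ males, 8 of 10 in females and 6 of 10 in ∆UCS males, with Cd68 at log2 changes of 3.36, 3.97 and 2.89. In all 24 libraries 0 of these 10 were called. Of the lymph node stroma genes 5 of 9 were tested and 0 called, 2, 2 and 0 having an unadjusted p below 0.05. The thymocyte list had 3 of 11 tested and 0 called, 0, 0 and 2 having an unadjusted p below 0.05. The thymic epithelium list had 3 of 8 tested and 0 called, and 0, 2 and 3 below 0.05. Contractile smooth muscle genes, 9 of 10 tested, gave 0 calls, and 1, 0 and 0 were below 0.05. Of 9 of 10 brown adipocyte genes tested, 1, Otop1, was called lower in Bmp2+/+ males (log2 change -1.47, adjusted p = 0.030) and 0 in the other comparisons, where 7 and 4 had an unadjusted p below 0.05. Voom called 0 genes of the receptor constant, NK, lymph node stroma, thymocyte, thymic epithelium and smooth muscle lists in the same comparisons, and Otop1 lower in males and females. In the order Bmp2+/+ males, females and ∆UCS males, median log2 changes were 2.25, 2.45 and 1.79 for macrophage, 0.90, 1.59 and 1.05 for lymph node stroma, -0.25, -0.17 and 0.63 for thymocyte, -0.43, 1.09 and 1.45 for thymic epithelium, 0.26, 0.05 and -0.15 for smooth muscle and -1.21, -1.08 and -0.81 for brown adipocyte genes. The counts below 0.05 are again without the share of all genes. The part of these cell types in the levels of the receptor genes was not tested.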

How the data were processed

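PolyA RNA of 24 mouse aortas was sequenced from directional libraries, per the labels' protocols. The authors deposited TPM, and the submitters' processing notes name Partek and the build mm39. Aligner and counting rule: not given in the sources used here. All sample columns were used (0 unused). Each column sums to 482073, and mitochondrial genes take 40.2% to 61.2% of it. The lowest values equal 0.0001 read over the genomic span, which gave estimated reads: 73.2% of 255733 values between 0.5 and 20 reads lay within 0.05 of a whole number. That share is too low to treat them as counts.

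Main results used limma 3.58.1 (R 4.3.3) on log2(TPM + 1), which understates changes of low genes, with 6 group means and library set (2 sets, inferred from the spelling of library names; all ∆UCS libraries in one, all female libraries in the other), for genes that reached 1 TPM in 4 or more of 22 libraries. Groups are separate animals. P-values are two-sided and adjusted by Benjamini-Hochberg over all tested genes (threshold 0.05). Counts at an unadjusted p under 0.05, for members and lists, are given without the share of all genes below it, which need not equal 0.05. The procedure was tested on simulated data. Alternatives were all 24 libraries, a pseudocount of 0.1, no filter, median-of-ratios scaling, no library set, a replicate block, voom on estimated reads (at least 10 reads in at least 4 libraries) and each library left out. Leaving out the 2 libraries high in Rag1, 24 libraries with the other scaling or voom, a block of neighbouring animal numbers and relations without 2 libraries were chosen after seeing the data. The members and the 11 other gene lists were chosen with earlier results of these data known. Named from each list were up to 4 genes by highest mean or largest range, and genes called; markers of thymus, lymph node and plasma cells beyond these were named after their values were seen. One gene among those most like Cd79a is not reported here.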

Additional observations from a re-analysis of the deposited data

Results flagged for a closer look

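Each of the 9 genes was checked in the 4 groups that kept 4 libraries, and in 4 of these 36 checks 1 library lay far above the other 3. Chance flags about 1 in 20 separate groups, but the genes vary together and the 4 results come from 2 libraries, so they are not separate chances. Cd3g was 14.9241 TPM in ∆UCS Kl/Kl replicate 1, against 0.119, 0.502 and 0.755 TPM in the other ∆UCS Kl/Kl libraries. Cd8b1 was 13.4199 TPM in the same library, against 0.0635, 0.448 and 0.620 TPM in the others. Both values come from a library that also had 28.0 TPM of Rag1 and 89.5 TPM of Prss16. In female controls, Cd3g was 0.3276 TPM in replicate 4, against 0.0678, 0.0870 and 0.1003 TPM in the other libraries. Cd8b1 was 0.2804 TPM in that replicate, against 0.0481, 0.0593 and 0.0759 TPM. Rag1 in that library was 0.0600 TPM, and Ccl21a was 32.8 TPM, against 16.6 to 26.8 TPM in the other female controls.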

How the results depend on the processing

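No member was called in any of the 9 comparisons under any of the 33 alternatives. Over the 3 Kl/Kl comparisons the members had 891 log2 changes under these alternatives, of which 477 could not or did not move, mostly because the library left out was of another group. Of the rest, 402 kept their sign and 12 turned. Without the 2 libraries high in Rag1 the sign turned for Cd79a (-0.24) and Ms4a1 (-0.24) in Bmp2+/+ males and for Ms4a1 in ∆UCS males (-0.051). Leaving out each library gave -1.04 to 1.67 for Cd79a, -0.62 to 1.85 for Cd79b and -0.49 to 0.72 for Ms4a1 in Bmp2+/+ males, -0.14 to 1.71 for Cd79a in females and -0.051 to 0.69 for Ms4a1 in ∆UCS males. The lowest values in Bmp2+/+ males came without Kl/Kl replicate 4, where the library set term changes which controls are compared. Genes called in Bmp2+/+ males, 109, became 0 with 24 libraries (0 also under median-of-ratios scaling and 0 under voom), 178 under median-of-ratios scaling, 337 under voom and 36 to 410 with each library left out. In females 259 became 0 with 24 libraries (0 and 0), 988 without the filter, 729 under voom and 134 to 605 with each library left out. In ∆UCS males 64 became 0 with 24 libraries (1 under median-of-ratios scaling, 0 under voom), 129 under median-of-ratios scaling, 101 without library set, 270 under voom, 41 without the libraries high in Rag1 and 38 to 387 with each library left out. The cause was not tested. Calls split into 103 higher and 6 lower for Bmp2+/+ males (152 and 26 with median-of-ratios scaling), 257 and 2 for females (223 and 152) and 53 and 11 for ∆UCS males (71 and 58). The median log2 change of all genes, 0.09, 0.29 and 0.26, was then -0.02, -0.02 and 0.02, and that of the 9 members -0.82, 0.66 and 0.74. The r of Cd3e and Dntt was 0.27 in the second library set, 0.39 without the 2 farthest libraries and 0.39 without those high in Rag1. The r of Cd3e and Cd68 was 0.10 and 0.58 in the library sets and 0.60 after group means were subtracted.

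Same-numbered libraries did not pair: over 10 pairs their deviations correlated between -0.48 and 0.31, and 1 of 10 correlated best with its own number. With the replicate block 97, 184 and 50 genes were called for Bmp2+/+ males, Kl/Kl females and ∆UCS males, and 0 of 9 members in each. With the block of the 4 Kl/Kl and control pairs that have neighbouring animal numbers and the same age, chosen after seeing the data, 53, 115 and 35 genes were called in the same order, and 0 of 9 members in each. Deviations within these pairs correlated between -0.21 and 0.26, and 1 of 4 pairs matched best. Members with few reads, down to 9 for Cd3e, are measured least precisely.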
